A study of Mus musculus with 4 samples.

Results

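The 4 tissue inhibitors of metalloproteinases, Timp1 (ENSMUSG00000001131), Timp2 (ENSMUSG00000017466), Timp3 (ENSMUSG00000020044) and Timp4 (ENSMUSG00000030317), were followed across the mouse heart after myocardial infarction (MI). They were taken by symbol and were found as 4 of the 21885 genes counted. The family was chosen by these same UMI levels, between hearts and along the share of cardiomyocyte RNA in a spot, so those levels are given as a description, without a test. The members were tested only on splits of the spots by markers of other cell types, which had no part in the choice. Cardiomyocyte share, which did, was matched in bins in the main setting, and differences in it remained.

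Poly-adenylated RNA was captured with Visium arrays, in which each spot of a grid can cover several cells, on 1 section from each of 4 hearts. All hearts came from Collagen1a1-GFP+ mice of 8 to 12 weeks, in which a collagen promoter marks fibroblasts with GFP. The control heart was uninjured, and the others were taken at 3 days (3 dpi, 1 heart) and 5 days (5 dpi, 2 hearts) after permanent ligation of the left anterior descending coronary artery. By their labels, the control and 3 dpi hearts are female, 1 of the 5 dpi hearts is female and the other male. Y-linked genes went against the latter labels, with 704 UMIs (counted molecules) of 4 such genes in the heart called female and 1 in the heart called male. The 5 dpi hearts are therefore written as F-labelled and M-labelled, and where a pair of 5 dpi values is given, the F-labelled heart comes first.

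TIMPs are secreted proteins that block the active site of matrix metalloproteinases (MMPs) and, for some members, of ADAM and ADAMTS proteases. They thereby limit the breakdown of collagen and other matrix, and the balance between MMPs and TIMPs is a long-studied feature of scar formation in the heart. Timp1 is inducible by injury and cytokines, Timp2 also takes part in the activation of pro-MMP2 by the membrane protease Mmp14, Timp3 is bound to the matrix, and Timp4 is known for its high expression in the adult heart.

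After filtering, the control kept 1146 spots, the 3 dpi section 1741 and the 5 dpi sections 1535 and 1423, with 6250183 to 11010109 UMIs per section and medians of 4967.5 to 6935 per spot. Mitochondrial UMIs made up 40.1% in the control and 21.4%, 13.3% and 14.3% after MI (3 dpi first, then 5 dpi), so levels are given as CPM (UMIs of a gene scaled to a common total) over non-mitochondrial UMIs. All 12 cardiomyocyte marker genes together held 10.1% of these UMIs in the control and 4.53%, 1.98% and 3.71% after MI. In a spot, fewer cells of a type and less RNA per cell cannot be told apart.

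The gene regions of the family share an unusual layout. Timp1, Timp3 and Timp4 each lie inside a synapsin gene, Syn1, Syn3 and Syn2 in turn, on the opposite strand. Whether the counting used the strand is not given in the sources used here, so reads of a host gene and its Timp gene may not have been told apart. The host genes were at 0 to 3.77 CPM in every section, and Syn2, the host of Timp4, had 2.14 CPM in the control and 1.67, 1.47 and 1.56 CPM after MI. The 250 bases before the RefSeq start of Timp1 and Timp4 (build GRCm38.p6) are shown because these genes stood at opposite ends of the pattern. The Timp1 stretch is chrX:20869916-20870165 on the plus strand, the Timp4 stretch is chr6:115252206-115252455 on the minus strand, both are written in the direction of the gene, and capitals mark the motifs found.
Timp1: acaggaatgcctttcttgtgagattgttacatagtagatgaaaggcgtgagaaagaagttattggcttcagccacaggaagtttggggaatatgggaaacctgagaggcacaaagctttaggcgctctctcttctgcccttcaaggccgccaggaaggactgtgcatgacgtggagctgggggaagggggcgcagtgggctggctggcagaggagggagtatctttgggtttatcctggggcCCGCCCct
Timp4: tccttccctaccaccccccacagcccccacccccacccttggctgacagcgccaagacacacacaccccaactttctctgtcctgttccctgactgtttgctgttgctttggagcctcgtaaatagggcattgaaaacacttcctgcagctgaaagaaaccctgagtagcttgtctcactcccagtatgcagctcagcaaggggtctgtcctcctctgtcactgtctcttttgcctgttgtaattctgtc

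Windows of 300 bases, these 250 and the first 50 of the transcript, were searched on both strands for 5 motifs. These were TGANTCA and TGAGTAA, forms of the AP-1 site, the GC box GGGCGG, the TATA box TATAAA and the MEF2 box, and the matches found did not overlap. Timp1 held a GC box 8 bases before the start, on the reverse strand, and TGAGTAA 27 bases after it. Over the 32851 such windows, 35.7% held GGGCGG, 2.68% held TGAGTAA and 7.81% held TGANTCA. The TATA box was in 13.6% of them and the MEF2 box in 3.69%. Timp2 and Timp3 held GC boxes as well, and Timp4 held none of the 5 motifs in its window. The G and C content of the 250 bases was 54.4% for Timp1 and 53.6% for Timp4, against 68.0% for Timp2 and 65.6% for Timp3, with a median of 52.4% over all such stretches.

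The family was made up of other members in the uninjured heart than after MI. In the control, Timp2 took 39.1% of the 803 UMIs of the family, Timp3 30.6%, Timp4 28.0% and Timp1 2.24%. At 3 dpi Timp1 took 82.2% of 14754 UMIs, and at 5 dpi 73.2% of 21953 and 75.4% of 14861. Timp4 held 0.258% at 3 dpi and 0.0592% and 0.215% at 5 dpi. A UMI stands for 1 captured transcript end, so these shares need no correction for gene length, and they do not depend on how the sections are scaled.

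**Figure D1:**
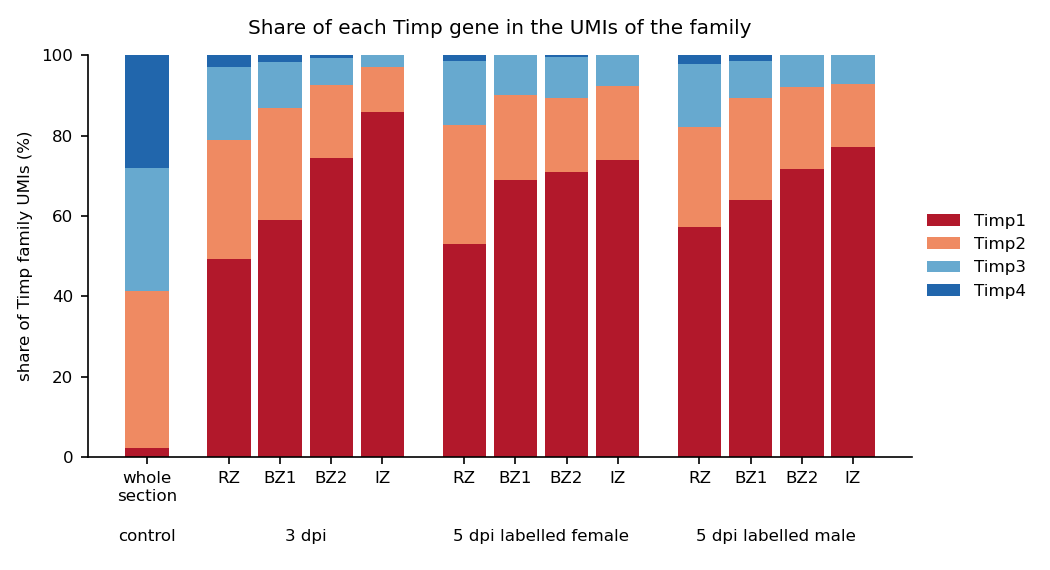
Share of each Timp gene (percent, y axis) in all UMIs of the family, for the whole control section and for the 4 zones of each infarcted section. Timp4 holds 28.0% in the control and at most 2.86% in any zone of an infarcted section, and Timp1 goes from 49.2% in the remote zone to 85.8% in the infarct zone at 3 dpi.

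Timp1, the inducible member, went from the lowest to the highest of the family. It was at 4.81 CPM in the control, where 18 UMIs lay in 18 of 1146 spots. After 3 days it stood at 1449 CPM, and after 5 days at 1685 and 1347 CPM. All infarcted sections were far above the control, at 301 times its level at 3 dpi (95% interval 190 to 508) and 350 and 280.0 times at 5 dpi (intervals 222 to 591 and 177 to 473). Such intervals are exact, come from the counts and cover counting error only. The control and 3 dpi have 1 heart each, so that their spread between hearts is not known. The mean at 5 dpi, 1516 CPM ± 239 (SD, n = 2), spans the value at 3 dpi. A Timp1 UMI was found in 1.57% of control spots and in 78.7%, 91.3% and 75.9% of spots after MI.

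Timp2, detected at 83.9 CPM in the uninjured heart, had 235 CPM at 3 dpi, and the 5 dpi hearts had 429 and 295 CPM. These levels were 2.80 times the control at 3 dpi (interval 2.48 to 3.16) and 5.11 and 3.52 times at 5 dpi. The 5 dpi mean of 362 CPM ± 94.4 (SD, n = 2) lay above the 3 dpi value by more than 1 SD, a difference that was not tested.

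Timp3, the matrix-bound member, had 65.7 CPM in the control and 73.4 CPM at 3 dpi, and the 5 dpi hearts had 186 and 141 CPM. At 3 dpi it was within counting error of the control, at 1.12 times its level with overlapping intervals (57.8 to 74.5 and 67.7 to 79.5 CPM), and under TMM scaling this ratio turned to a log2 of −0.27. TMM scaling, which sets most genes equal, lowered every log2 ratio to the control by 0.43 at 3 dpi and by 0.48 and 0.35 at 5 dpi. Both 5 dpi sections were above the control under either scaling, at 2.82 and 2.15 times its CPM, with a mean of 164 CPM ± 31.2 (SD, n = 2).

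For Timp4, the member of the adult heart, the order was the reverse. The control held 225 UMIs, or 60.1 CPM, in 15.4% of its spots. The 3 dpi section held 38 UMIs, 4.54 CPM, and the 5 dpi sections 13 and 32, or 1.36 and 3.85 CPM. The control was thus 13.3 times the 3 dpi level (interval 9.36 to 19.2) and 44.1 and 15.6 times the 5 dpi levels (intervals 25.3 to 84.2 and 10.8 to 23.4). The control interval of 52.5 to 68.5 CPM lies above those of all infarcted sections, the highest of which ends at 6.23 CPM.

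Within the control the intervals of Timp3 (57.8 to 74.5 CPM) and Timp4 overlapped, and that of Timp2 began just above Timp3 at 74.9 CPM. In each infarcted section the order was Timp1, Timp2, Timp3 and Timp4, with no overlap of intervals between neighbours.

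**Figure D2:**
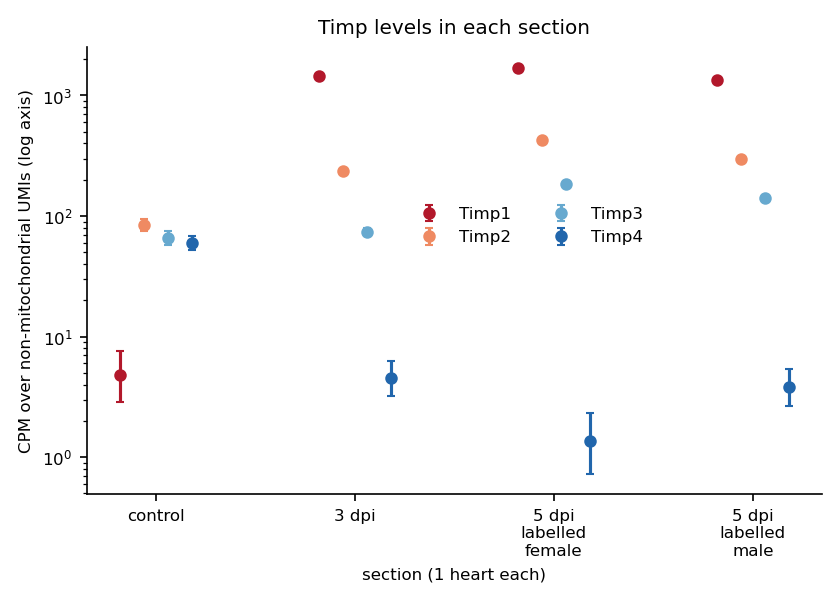
Level of each Timp gene (CPM over non-mitochondrial UMIs, log axis) in the 4 sections, with exact 95% Poisson intervals of the counts as bars. Timp1 is lowest in the control at 4.81 CPM and highest in the infarcted sections at 1347 to 1685 CPM, where Timp4 is lowest at 1.36 to 4.54 CPM.

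Where in the tissue each member lay was asked next with zones set from the cardiomyocyte markers. The infarct zone (IZ) joins spots in which their share is under 0.5 times the 90th percentile of the section. Border zone 2 (BZ2) lies within 2 spot steps of it, border zone 1 (BZ1) at 3 to 4 steps, and the remote zone (RZ) farther out. The IZ held 882 spots at 3 dpi and 1061 and 684 at 5 dpi, and the RZ 380, 200 and 533. Triplets of values follow the order 3 dpi, F-labelled and M-labelled.

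Timp1 was graded from remote to infarcted tissue in every section. From RZ through BZ1 and BZ2 to IZ, the 3 dpi heart had 233, 423, 839 and 2037 CPM. The F-labelled heart had 339, 717, 975 and 1953 CPM, and the M-labelled heart 251, 410, 574 and 2075 CPM. Infarct zones were thus close to each other at both times, and IZ exceeded RZ by a log2 of 2.90 ± 0.33 (SD, n = 3). This difference was 2.26 with the IZ limit at 0.3 in place of 0.5 times that percentile and 2.51 under TMM scaling.

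Timp1 was also counted outside the infarct zone. The RZ was at 48.5, 70.5 and 52.1 times the level of the control section. Beyond 8 steps from the IZ, where 161, 68 and 327 spots were left, it was still at 76.1, 219 and 166 CPM, or 15.8, 45.5 and 34.5 times the control. As a share of the IZ level, Timp1 in the RZ came to 11.5%, 17.4% and 12.1%. Mmp12, a macrophage elastase, had 5.22%, 6.72% and 0.944% of its IZ level there. How much of the Timp1 outside the infarct was RNA spread between spots was not tested.

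Timp2 also had its highest levels in the infarct, with a shallower slope. Over the same zones its CPM was 141, 200.5, 205 and 271 at 3 dpi, 190, 219, 255 and 483 in the F-labelled heart, and 109, 163, 163 and 417 in the M-labelled one. The IZ exceeded the RZ by a log2 of 1.41 ± 0.50 (SD, n = 3). Between the times, Timp2 in the IZ stood at 271 CPM against 483 and 417, whereas the RZ value at 3 dpi lay between those at 5 dpi.

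Timp3 had no common direction. From RZ to IZ the 3 dpi heart had 86.6, 81.4, 77.6 and 65.9 CPM. The F-labelled heart had 103, 102, 139 and 203 CPM, and the M-labelled heart 69.3, 59.5, 64.2 and 194 CPM. The log2 ratio of IZ to RZ was −0.39 at 3 dpi and 0.98 and 1.49 at 5 dpi, with a mean of 0.69 ± 0.97 (SD, n = 3) that is smaller than its spread. In the IZ the 3 dpi level lay below both 5 dpi levels, while in the RZ it lay between them.

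Timp4 was nearly absent from the counts of the infarct. The IZ held 3, 1 and 3 Timp4 UMIs among 4990848, 7525906 and 4838496, or 0.601, 0.133 and 0.620 CPM. The RZ held 18, 7 and 23, or 13.5, 8.36 and 9.27 CPM. RZ levels were 22.5 times (interval 6.58 to 119), 62.9 times (8.08 to 2835) and 14.9 times (4.52 to 77.7) those of the IZ, wide ranges that follow from so few counts. The RZ in turn was below the control section, by 4.44, 7.19 and 6.49 times.

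**Figure D3:**
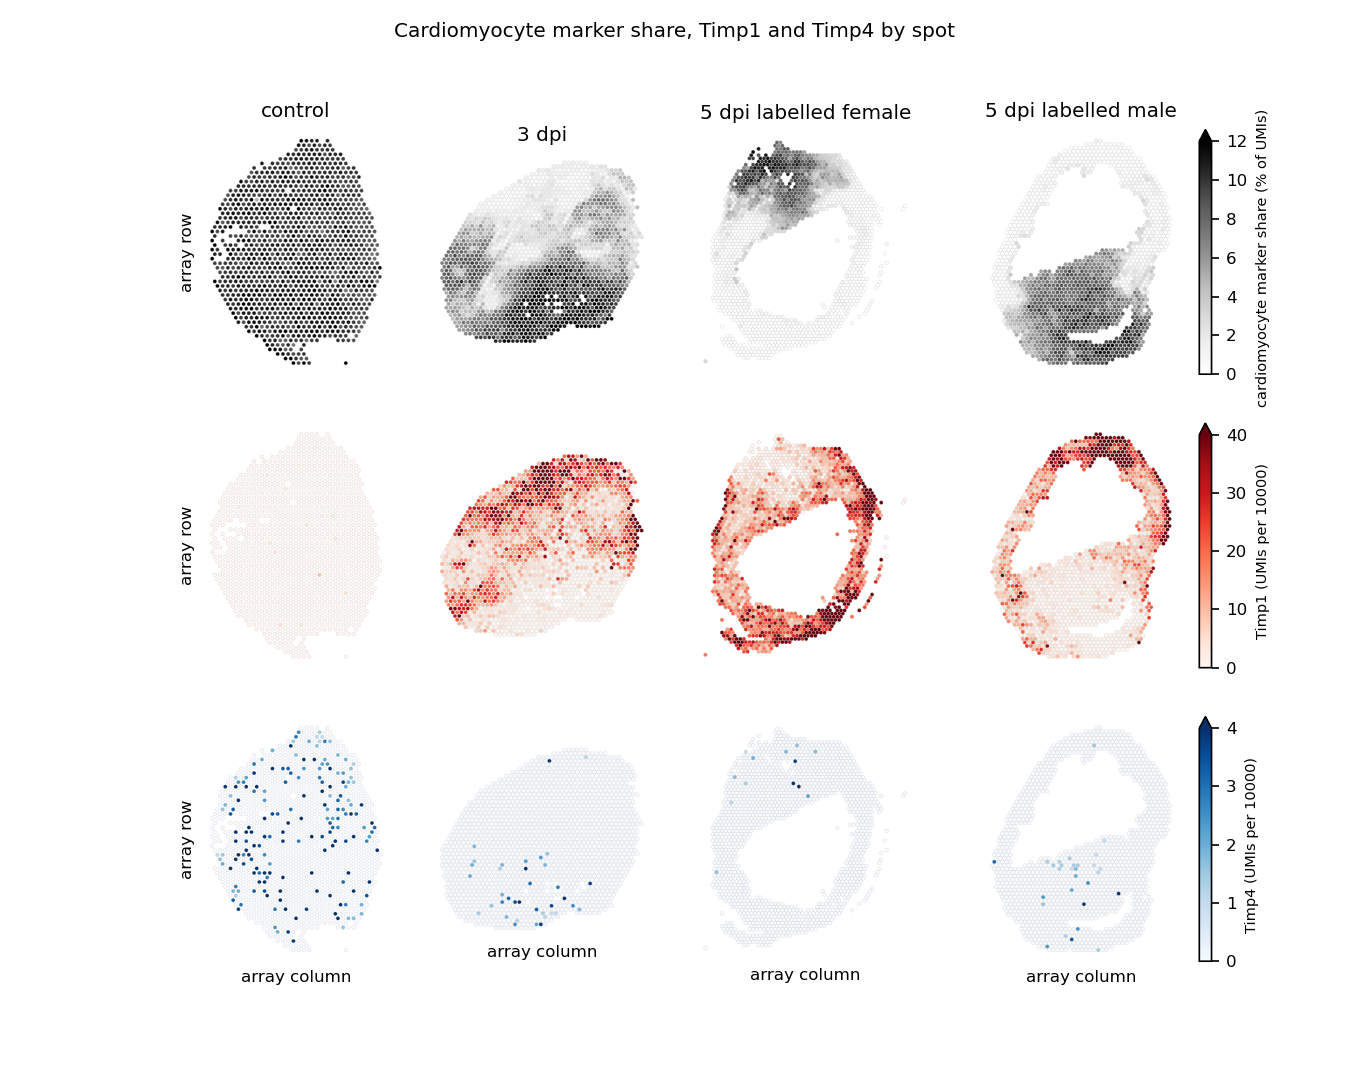
Spots of the 4 sections at their place on the array (columns across, rows down), coloured by the share of cardiomyocyte marker UMIs (percent), by Timp1 and by Timp4 (UMIs per 10000 non-mitochondrial UMIs, colour scales capped at 12, 40 and 4). Timp1 fills the pale areas of low cardiomyocyte share, and the few Timp4 spots of the infarcted sections lie mostly in the dark areas, with 3, 1 and 3 Timp4 UMIs in the infarct zones.

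To set muscle against muscle, spots were then taken whose cardiomyocyte share was at least 0.75 times the control median of 10.2%, in the control 1135 spots and in the infarcted sections 523, 189 and 399. Timp4 in these spots had 59.7 CPM in the control, against 16.5, 10.3 and 10.9 CPM after MI. The control was higher by 3.63 times (interval 2.48 to 5.46), 5.79 times (2.89 to 13.6) and 5.49 times (3.44 to 9.30). Timp1 was at 4.57 CPM in these control spots and at 259, 267 and 131 CPM after MI. For Timp2 the control had 83.7 CPM and the infarcted hearts 149.8, 190 and 94.99 CPM. For Timp3 the control had 65.6 CPM and the infarcted hearts 85.0, 82.6 and 64.1 CPM. Timp2 in the M-labelled heart and Timp3 in both 5 dpi hearts were within counting error of the control. The cardiomyocyte share of these spots was 10.2% in the control and 9.70%, 9.26% and 8.97% after MI.

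Along the distance from the infarct edge, Timp1 was highest more than 4 steps inside, at 2338, 2116 and 2287 CPM. At 3 dpi it was higher in each bin than in the one farther out. In both 5 dpi sections it was lower at 3 to 4 steps inside, 1162 and 1093 CPM, than at 1 to 2 steps inside, 1570 and 1175 CPM, though the intervals of the M-labelled heart (989 to 1205 and 1084 to 1272 CPM) overlapped. Timp3 at 5 dpi stood at 221 and 164 CPM in the first 2 steps inside, against 139 and 64.2 CPM in the last 2 outside. The matching values at 3 dpi were 70.8 and 77.6 CPM. Timp4 was at 21.2, 6.35 and 10.7 CPM beyond 8 steps outside, on 12, 2 and 17 UMIs.

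**Figure D4:**
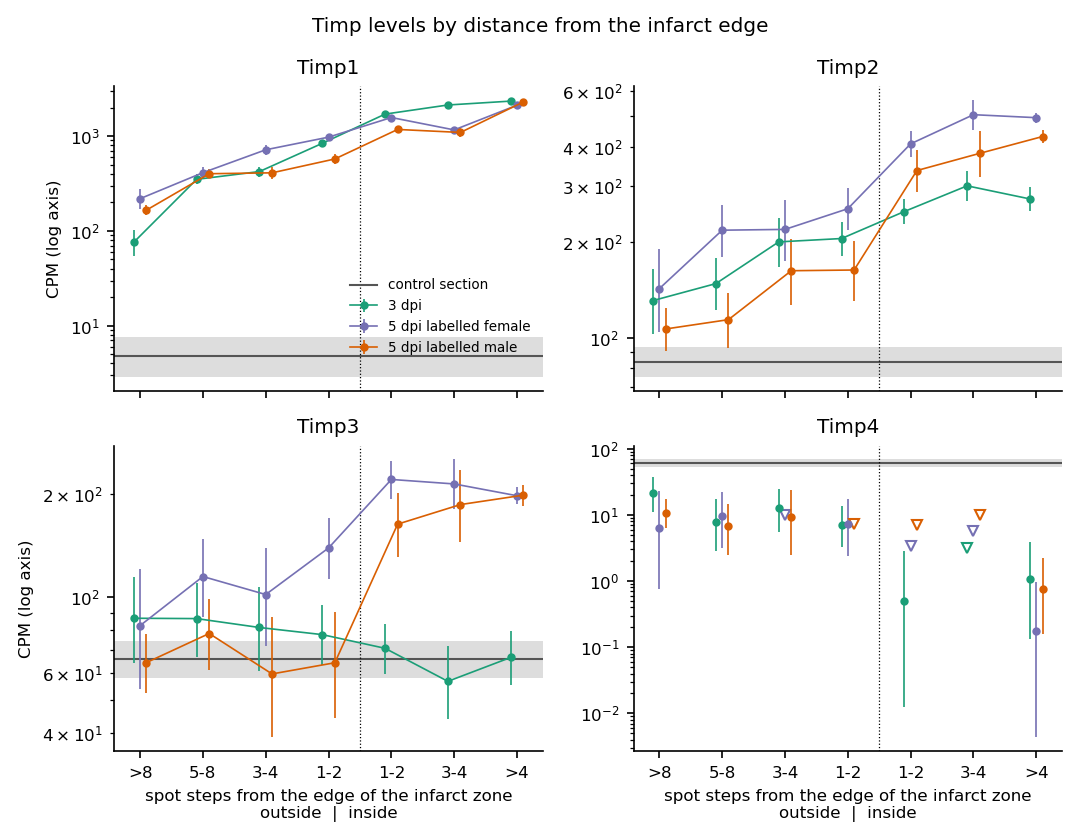
Level of each Timp gene (CPM, log axis) against spot steps from the edge of the infarct zone, outside on the left and inside on the right of the dotted line, with exact 95% Poisson intervals, open triangles for the upper limit where no UMI was counted, and a grey band for the control section. Timp1 lies between 76.1 and 2338 CPM and everywhere above the control band, Timp4 lies below its band in every bin, and Timp3 inside the infarct is at 56.6 to 70.8 CPM at 3 dpi and at 164 to 221 CPM at 5 dpi.

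Whether the members differ with macrophage or fibroblast markers inside the infarct was not part of the choice, and was tested. Spots of the IZ were split at the median of each cell type's marker share, within 5 bins of cardiomyocyte share in each section, and UMIs were summed per side and section. The sums were compared by edgeR's quasi-likelihood test with the section as a block, with Benjamini-Hochberg adjustment over all genes and a threshold of 0.05. Hearts are the replicates here, 3 in the infarct and 4 in muscle. The edgeR error is estimated partly from all genes, so its p-values do not measure the spread between hearts alone.

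Timp1 was lower in the spots rich in macrophage markers. At 3 dpi it had 2457 CPM in macrophage-poor and 1591 CPM in macrophage-rich spots. The F-labelled heart had 2315 and 1664 CPM, and the M-labelled heart 2787 and 1376 CPM, so that every poor side was above every rich side. The log2 change was −0.70 (SE 0.080, edgeR adjusted p = 1.94e-06, lower in 3 of 3 sections). DESeq2 gave −0.71 (SE 0.17, adjusted p 0.00126). Timp2 changed in the other direction, from 250 to 297 CPM, 464 to 509 CPM and 368 to 474 CPM in the same order, with a log2 change of 0.25 (SE 0.068, edgeR adjusted p = 0.0176, higher in 3 of 3 sections). Timp3 did not pass, at a log2 of 0.02 (SE 0.099, edgeR adjusted p = 0.955), and was lower on the rich side in 2 of 3 sections. Timp4 had too few UMIs in the IZ to be tested.

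So 2 of the 3 members tested were called, where 10.8% of the 10900 genes tested were called, 6.29% higher and 4.55% lower. Without the section as a block neither call held (adjusted p 0.254 for Timp1 and 0.922 for Timp2). The call of Timp2 was also lost by DESeq2 (adjusted p 0.139), without the 3 dpi heart (0.0678) and without the M-labelled heart (0.0957), while that of Timp1 held in these. Macrophage-rich spots had more of the 10 macrophage markers by construction, 10048 against 4656 CPM, 15036 against 7210 CPM and 14594 against 6897 CPM. They also held less of the 4 atrial markers Nppa, Sln, Myl7 and Myl4, nearly all of it Nppa, a natriuretic peptide gene that stressed ventricular muscle also expresses, at 9855 against 13286 CPM, 3959 against 9121 CPM and 8363 against 11974 CPM, and at 5 dpi lay closer to the infarct edge, at medians of 11 and 11 steps against 23 and 16. Matched on steps from the edge in place of cardiomyocyte share, the log2 change was −0.55 for Timp1 and 0.33 for Timp2 (adjusted p 3.48e-05 and 0.00366). That setting leaves unmatched the share along which the family was chosen. Mural markers were lower in macrophage-rich spots as well (939 against 1116, 1859 against 2422 and 1651 against 2008 CPM), as were, by a smaller margin, fibroblast markers (13179 against 13459, 23685 against 25599 and 21171 against 23233 CPM). Erythroid markers had no common direction (3981 against 2775, 11653 against 35203 and 9062 against 14792 CPM). The part of these markers in the result was not tested.

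Split by the 7 fibroblast markers instead, the same infarct spots showed no call for any member, where 5.33% of 10952 genes tested were called, 3.42% higher and 1.91% lower. In poor and rich spots Timp1 had 2010 and 2116 CPM at 3 dpi, 1988 and 2016 CPM in the F-labelled heart, and 1952 and 2274 CPM in the M-labelled one. The log2 changes were 0.08 for Timp1 (SE 0.049), 0.17 for Timp2 (SE 0.058) and 0.26 for Timp3 (SE 0.084), with edgeR adjusted p of 0.41, 0.105 and 0.0766, and each was higher on the rich side in 3 of 3 sections. These p-values do not show that the sides were alike. Fibroblast-rich infarct spots held less erythroid RNA (1799 against 5057, 11506.7 against 34178.5 and 10919.5 against 12936.7 CPM). They also lay nearer the edge, at medians of 3 against 5, 15 against 20 and 12 against 14 steps. Atrial markers and cardiomyocyte share were lower and mural markers higher on that side in each section, and their part was not tested. Timp3 passed without the 3 dpi section (0.31, adjusted p 0.00925) and with no filter on low counts (0.26, adjusted p 0.0284), and Timp1 and Timp3 passed when spots were matched on steps (0.22 and 0.30, adjusted p 0.0165 and 0.0460). Matching on steps drops the matching on cardiomyocyte share, along which the family was chosen.

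Outside the infarct, in the RZ and the control section, Timp1 was higher where fibroblast markers were higher. It was at 3.63 CPM in fibroblast-poor and 6.12 CPM in fibroblast-rich spots of the control, on few counts. After MI the same sides had 169 and 301 CPM at 3 dpi, 286 and 397 CPM in the F-labelled heart and 175 and 324 CPM in the M-labelled one. The log2 change was 0.73 (SE 0.091, edgeR adjusted p = 1.84e-12, higher in 4 of 4 sections). By DESeq2 it was 0.70 (SE 0.15, adjusted p 0.00104). Section log2 ratios ran from 0.47 to 0.89, with 7 and 11 UMIs on the poor and rich sides of the control. Timp2 was higher as well, by a log2 of 0.43 (SE 0.10, edgeR adjusted p = 0.00176), though only in 3 of 4 sections. Poor and rich sides had 65.3 and 104.7 CPM in the uninjured heart, 135 and 148 CPM at 3 dpi, 202 and 179 CPM in the F-labelled heart and 76.5 and 142 CPM in the M-labelled one. Neither Timp3 (log2 0.25, SE 0.12, edgeR adjusted p = 0.396) nor Timp4 (log2 −0.37, SE 0.19, edgeR adjusted p = 0.451) passed.

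These are 2 of 4 members, where 3.09% of 7374 genes tested were called, 1.67% higher. Both calls needed the section block (adjusted p 0.998 for each without it). Timp1 had a log2 change of 1.53 without bins of cardiomyocyte share and 1.32 with bins of steps from the edge, chosen after seeing the data. Neither setting matches on cardiomyocyte share, along which the family was chosen, so these larger values do not bear on the call. The call of Timp2 was also lost by DESeq2 (0.666), without the control (0.274) and without the M-labelled heart (0.358). Macrophage markers were higher in the fibroblast-rich muscle spots of all 4 sections (1010 against 823, 1752 against 1575, 2065 against 1933 and 1636 against 1395 CPM), as were the 4 atrial markers (580 against 219, 4605 against 3106, 8986 against 5390 and 7211 against 4868 CPM), and their part was not tested. Median distance from the infarct was 8, 7 and 9 steps in rich and 8, 7 and 10 steps in poor spots. Cardiomyocyte share stayed lower on the rich side in all 4 sections (10.11% against 10.14%, 9.55% against 10.06%, 8.52% against 8.86% and 8.11% against 8.26%). Erythroid markers were lower there in the infarcted hearts (5671 against 8078, 28557 against 38078 and 11881 against 19199 CPM) and higher in the control (8967 against 8446 CPM). The part of either was not tested.

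Vessel markers gave no call of a member in the same muscle spots. With the 7 mural markers of smooth muscle and pericytes, 0.231% of 7345 genes were called, and Timp1 had the lowest p of the family (log2 −0.33, SE 0.092, edgeR adjusted p = 0.134), lower in mural-rich spots in 4 of 4 sections. With the 8 endothelial markers, 0.149% of 7390 genes were called and Timp4 had a log2 change of 0.29 (SE 0.18, edgeR adjusted p = 0.818), higher in endothelial-rich spots in 4 of 4 sections. This direction rests on few counts, as the whole RZ held only 18, 7 and 23 Timp4 UMIs in the infarcted hearts. At an unadjusted p under 0.05, 386 and 502 genes passed in these splits. DESeq2 called 1 and 0 genes there, none of them a member.

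**Figure D5:**
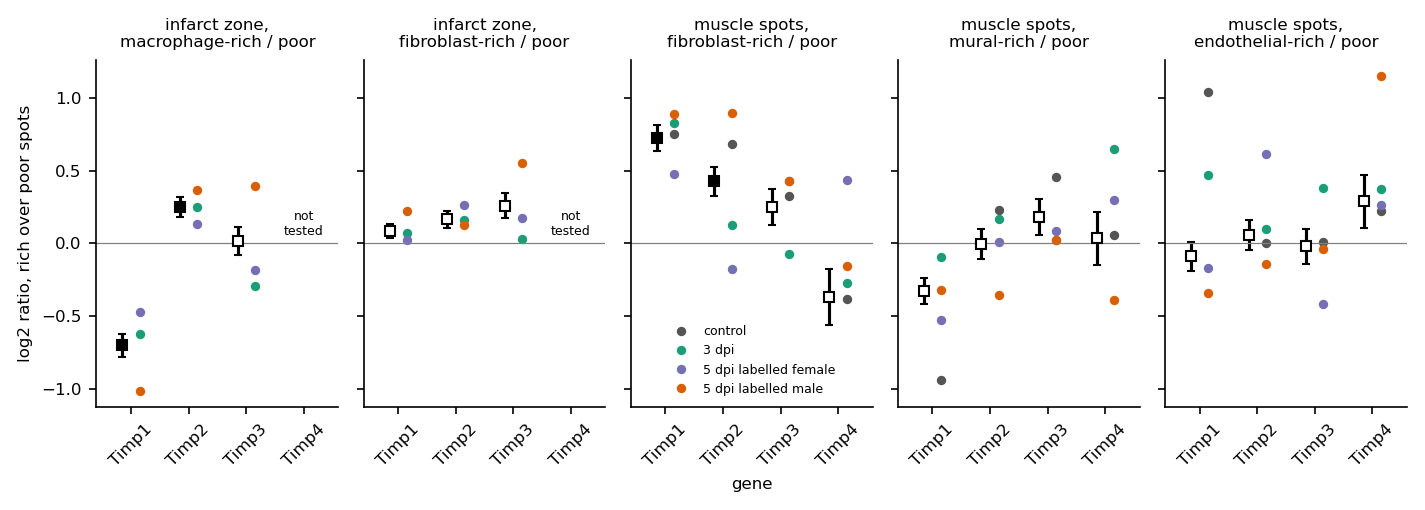
Log2 ratio of each Timp gene between spots rich and poor in a cell type's markers (y axis), as the edgeR estimate with its SE (squares, filled where the adjusted p is under 0.05) and as the plain CPM ratio of each section (coloured points). In macrophage-rich infarct spots Timp1 lies at −0.70 and Timp2 at 0.25, and in fibroblast-rich muscle spots they lie at 0.73 and 0.43.

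The proteases that TIMPs act on, and their partners, were described from a list of 32 genes, of which 16 reached 50 CPM in a zone. Mmp2, the gelatinase whose activation involves Timp2 and Mmp14, had 88.5 CPM in the control, 91.8 CPM at 3 dpi, and 363 and 244 CPM in the 5 dpi hearts. Mmp14 was at 6.15, 38.3, 61.5 and 22.5 CPM, and Mmp12, a macrophage elastase, at 2.14, 72.4, 99.8 and 50.3 CPM. Adamts2, which trims procollagen, had 17.6, 143, 301 and 248 CPM. Mmp15, a membrane protease, had 90.3 CPM in the control against 48.4, 25.6 and 35.6 CPM after MI.

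Between IZ and RZ, with TMM scaling as in all edgeR values, 22 of the 32 were tested, 16 were higher in the IZ, where 26.8% of 9444 genes were, and 3 were lower, where 27.0% were. These zones were set by the cardiomyocyte share that also chose the family. The median log2 change of the 22 was 1.28, against 0.05 over all genes. Mmp12 had the highest change among those at 50 CPM, at 4.32 (SE 0.32, edgeR adjusted p = 4.22e-10). It did not reach 50 CPM in the RZ, at 6.02, 8.36 and 0.806 CPM against 115, 124 and 85.4 CPM in the IZ, so the limit itself favoured such a gene. The genes that were lower were Mmp15 at −2.06, Kdr, a receptor of vascular endothelial growth factor, at −1.48 and Bsg, an inducer of MMPs, at −1.07. Cd63, a tetraspanin to which TIMP1 binds, was at 272, 320 and 294 CPM in the RZ and 925, 1117 and 1075 CPM in the IZ, a log2 change of 1.40 (SE 0.12, edgeR adjusted p = 5.09e-09).

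In the split of infarct spots by macrophage markers, 26 list genes were tested, 4 higher and 3 lower, where 6.29% and 4.55% of all genes were. Mmp12 was higher on the macrophage-rich side at 0.51 (SE 0.096, edgeR adjusted p = 0.000859), and Lrp1, a clearance receptor for MMP and TIMP complexes, at 0.23 (edgeR adjusted p = 0.0237). Mmp14 was lower at −0.43 (edgeR adjusted p = 0.00725), as Timp1 was. By fibroblast markers 27 were tested, 6 higher and 2 lower, where 3.42% and 1.91% of all genes were, among them Mmp2 at 0.77 (SE 0.066, edgeR adjusted p = 4.81e-08), Mmp23 at 0.62 and Adamts2 at 0.52. Mmp12 was lower there at −0.92 (SE 0.11, edgeR adjusted p = 8.10e-06). In fibroblast-rich muscle spots 3 of 15 were called, where 3.09% of all genes were, all higher, Mmp2 at 0.49, Adamts2 at 0.64 and Lrp1 at 0.54.

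The genes most like each member were ranked by Pearson's r of log2(CPM + 1) over 13 pools, the control section and the 12 zones of the infarcted sections, among 4097 other genes. The zones of a section share a library, so r is a description. With r above 0.9 there were 159 genes for Timp1 and 364 for Timp2, against 0 for Timp3 and 2 for Timp4, so the 3 named for Timp1 and Timp2 stand in a large group of near-equal values. Lox, a collagen crosslinking enzyme, was closest to Timp1 (r = 0.98), before Sprr1a, a gene induced in stressed cardiomyocytes, and Rpl3, a ribosomal protein, at 0.97 each. For Timp2 they were C1qa, a complement gene of macrophages (0.99), the lysosomal gene Ctsa (0.98) and Unc93b1 (0.97). Timp3 was most like Sod3, an extracellular superoxide dismutase (0.90), 2310022B05Rik (0.90) and Igfbp4 (0.87), and Timp4 most like Sh3kbp1 (0.92), the carboxylesterase Ces1d (0.92) and Tcea3 (0.89). Between Timp1 and Timp4 r was −0.78, and between Timp1 and Timp2 it was 0.84.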

How the data were processed

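UMI counts per spot and gene were deposited as raw matrices. The authors made them with Space Ranger 1.3.1, per the file headers, against a mouse reference to which GFP had been added. The genome build is named differently in the methods and the labels, so it is not settled, and the files hold no coordinates.

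Spots marked as tissue were kept with at least 500 UMIs, 250 genes and at most 50% mitochondrial UMIs. Levels are CPM over non-mitochondrial UMIs with exact Poisson intervals, and ratios have exact conditional ones, all at 95% and covering counting error only. With 3 counts as the floor, a section could show 0.314 to 0.802 CPM. Zones were set here, since the study's thresholds are not stated, and patches of fewer than 10 low spots were left out. Sections shared 328 to 867 array positions, which the array fixes.

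UMIs summed per section and side were tested with edgeR 4.0.16 (quasi-likelihood, TMM, filterByExpr) and, as an alternative, DESeq2 1.42.0, in R 4.3.3. Genes of the splitting list were left out of the sums. Scripts were tested on simulated data. The members, gene lists and tests were chosen with earlier results of these data known. Named genes were the members, their host genes, list genes reaching 50 CPM in a zone and the 3 genes most like each member. The atrial markers were named outside this rule, after their values were seen. Matching on steps from the infarct edge was chosen after seeing the data, and it takes the place of matching on cardiomyocyte share. Promoter sequences are from RefSeq (GRCm38.p6), in which all 4 members were found.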

Additional observations from a re-analysis of the deposited data

Results flagged for a closer look

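Timp3 between the IZ and the RZ took opposite directions at the 2 times, with a log2 ratio of −0.39 at 3 dpi and 0.98 and 1.49 in the F-labelled and M-labelled 5 dpi hearts. In fibroblast-rich against fibroblast-poor muscle spots, the log2 ratio of Timp3 was −0.077 at 3 dpi and 0.43 in both 5 dpi sections, and in endothelial-rich against endothelial-poor spots it was 0.38 at 3 dpi and −0.42 and −0.04 at 5 dpi. Timp1 in the endothelial split was at 0.47 at 3 dpi and −0.17 and −0.34 at 5 dpi. None of these differences was tested.

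In the M-labelled 5 dpi section, 623 of the 2047 spots with counts were not marked as tissue and stayed out of all values. Timp1 was at 2728 CPM in them, Timp2 at 287 CPM and Timp3 at 175 CPM, each above the upper limit of the control section (7.60, 93.7 and 74.5 CPM). Timp4 was at 1.79 CPM, on 4 UMIs, and cardiomyocyte markers held 1.69% of their UMIs. The IZ of the same heart had 2075 CPM of Timp1 and a cardiomyocyte share of 0.868%. Levels, zones and steps of this section were set without the unmarked spots, and the effect of leaving them out was not tested.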

How the results depend on the processing

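Levels rest on 1 heart for the control and for 3 dpi, and Timp4 in the infarct rests on 7 UMIs in all, so that its ratios there are open to large counting error. The splits have 3 or 4 hearts, and their calls rest on the section as a block. In the splits the rich and poor sides of a section are paired, and the section block is this paired analysis. Across hearts the labels give no replicate numbers, and those used here follow accession order and pair nothing.

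Without the section block 0 genes were called in each of the 5 splits. DESeq2 called 166 genes in the fibroblast and 356 in the macrophage split of the IZ, and 36, 1 and 0 in the fibroblast, mural and endothelial splits of muscle. Without bins of cardiomyocyte share the macrophage split gave 2640 genes, the fibroblast split of muscle 581 and the endothelial split 85. With bins of steps from the edge, chosen after seeing the data, these gave 2330, 443 and 5, and the endothelial split gave 24 when only spots at the high and low ends of the marker share were set against each other. Leaving out 1 heart each gave 311 to 831 and 501 to 1013 genes in the fibroblast and macrophage splits of the IZ, 133 to 171, 10 to 15 and 0 to 9 in those of muscle, and 4163 to 4624 between IZ and RZ.

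For the members, fibroblast-rich IZ spots gave calls for Timp1 with bins of steps (0.22) and for Timp3 with bins of steps (0.30), with no filter on low counts (0.26) and without the 3 dpi heart (the range without 1 heart was 0.11 to 0.34). In the macrophage split Timp1 was not called without the block (−0.70). Timp2 was not called by DESeq2 (0.24), without the block (0.25) or without the 3 dpi heart or the M-labelled heart (range 0.19 to 0.32). In fibroblast-rich muscle Timp1 was not called without the block (0.69), and Timp2 was not called by DESeq2 (0.37), without the block (0.28), or without the control or the M-labelled heart (range 0.26 to 0.57). Ranges of Timp1 without 1 heart were −0.81 to −0.55 in the macrophage split and 0.62 to 0.82 in fibroblast-rich muscle. The cause was not tested.

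Values that changed sign belonged to members that were called neither way. Timp3 in the macrophage split was at −0.011 by DESeq2, −0.094 without bins, −0.10 with bins of steps and −0.21 to 0.16 without 1 heart. In the mural split Timp2 was at 0.052 between those ends of the share and −0.10 to 0.14 without 1 heart, and Timp4 at −0.0076 without bins and −0.017 to 0.082 without 1 heart. In the endothelial split Timp1 was at 0.061 by DESeq2, 0.17 without bins and −0.28 to 0.17 without 1 heart, Timp2 at −0.052 to 0.16 without 1 heart, and Timp3 at 0.017 without bins, 0.0029 with bins of steps and −0.11 to 0.046 without 1 heart.

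With mitochondrial UMIs in the denominator, log2 ratios over the control were 8.82 for Timp1 at 5 dpi, 1.88 and 2.61 for Timp2 at 3 and 5 dpi, and 0.55 and 1.83 for Timp3, and ratios of IZ to RZ were 3.45 for Timp1 and 1.96 for Timp2. With TMM scaling, ratios over the control were 7.88 for Timp1 at 5 dpi, 1.05 and 1.67 for Timp2, and −0.27 and 0.89 for Timp3, and IZ over RZ was 2.51 for Timp1. A zone limit of 0.3 gave 2.26 for the latter. Of the other settings, 78 values of the levels stayed within 1 SD of the hearts or, for 3 dpi over control with 1 heart each, within the counting interval, and 135 values of the member tests kept direction and side of the threshold.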
